A study of Mus musculus with 6 samples.

Results

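The tumour suppressor p53, encoded by Trp53 in the mouse, was described together with 9 of its direct target genes in Neuro2a cells after knockdown of Fam172a. The 10 genes were taken by symbol from the 24421 gene rows of the count table: Trp53, its inhibitor Mdm2, and the targets Ccng1, Btg2, Phlda3, Zmat3, Trp53inp1, Bax, Bbc3 and Fas. All 10 symbols were present and all 10 passed the filter on low counts. Neuro2a is a mouse neuroblastoma line, labelled wild type in genotype and as tumour cells of mouse brain. One group received the adenovirus ADV-shFam172a, which carries a hairpin against Fam172a (3 libraries), and the other ADV-shCtrl, which carries a control hairpin (3 libraries). Both groups were grown on collagen I in medium with serum and harvested after 48 h with virus. Each group received 1 hairpin virus, so a difference between the groups is one between 2 hairpins. Every library comes from virus-treated cells of 1 line, and no group without virus was analysed here. The labels do not say whether the 3 libraries of a group came from separate cultures, so the p-values measure the spread between these libraries, which may be technical.

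In unstressed cells p53 is kept low because Mdm2, a ubiquitin ligase, marks it for degradation, and Mdm2 is itself switched on by p53, which closes a feedback loop. Damage and other stresses free p53 mainly at the protein level, and it then binds paired half-sites in the DNA of its targets. These targets hold the cell cycle, adjust growth signals and metabolism, or open the mitochondrial and death receptor routes to apoptosis. In human neuroblastoma p53 is often normal in sequence while the proteins around it are altered. Counts of RNA show the targets and not the amount or activity of the p53 protein.

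Fam172a itself had 9.22, 8.27 and 9.21 CPM (counts per 1000000 gene counts, after TMM scaling) in ADV-shFam172a, against 18.6, 19.3 and 19.5 CPM in ADV-shCtrl. The knockdown libraries held 46.5% of the level in ADV-shCtrl, with no overlap (log2 fold change -1.10 ± 0.092, SE; edgeR adjusted p = 2.4e-12). Gene counts summed to 21690467 to 23409319 per ADV-shFam172a library and to 11250312 to 12820531 per ADV-shCtrl library, the shallower group. The ribosomal RNA precursor Rn45s was at 792 to 1140 CPM in ADV-shFam172a and at 409 to 565 CPM in ADV-shCtrl, and its part in the results was not tested. Of 16 sympathoadrenal neuroblast markers 15 were tested, with none at 0 counts, 8 called higher and 2 lower, and summed levels of 2993 to 3049 CPM in ADV-shFam172a and 2927 to 2969 CPM in ADV-shCtrl. The 8 macrophage and leukocyte markers summed to at most 1.34 CPM in ADV-shFam172a and 0.943 CPM in ADV-shCtrl, with Ptprc and Itgam at 0 counts in every library and Cd68, the 1 marker tested, called higher in edgeR and limma-voom; DESeq2 called 0 of this list, since it gave Cd68 no adjusted p. The 8 fibroblast markers summed to 9.84 to 12.2 CPM in ADV-shFam172a and 11.4 to 12.9 CPM in ADV-shCtrl, with 0 of 4 tested called in edgeR, DESeq2 or limma-voom and 1 lower at an unadjusted p under 0.05. The 8 markers of astrocytes and oligodendrocytes summed to 47.6 to 52.6 CPM in ADV-shFam172a and 50.2 to 53.8 CPM in ADV-shCtrl, with Aqp4 at 0 counts and 1 of 4 tested, Cnp, called lower in edgeR and limma-voom but 0 in DESeq2, and 1 higher and 1 lower at an unadjusted p under 0.05. The 8 markers of endothelium and epithelium summed to 17.7 to 19.6 CPM in ADV-shFam172a and 16.9 to 18.5 CPM in ADV-shCtrl, with 0 of 3 tested called in edgeR, DESeq2 or limma-voom and 0 at an unadjusted p under 0.05. The part of these cell types in the results was not tested. Beside these counts of markers, 17.5% of all genes tested were called higher in edgeR and 18.6% lower. ADV-shFam172a replicate 3 stood apart from replicates 1 and 2 in its share of pairs of low alignment quality, at 4.46% against 6.65% and 7.12%.

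Lowering Fam172a went with lower p53 and Mdm2 transcripts and with targets that moved in both directions. Of the 10 genes, 5 rose in ADV-shFam172a (Btg2, Phlda3, Trp53inp1, Zmat3 and Bax), 3 fell (Ccng1, Trp53 and Mdm2), and Bbc3 and Fas did not pass the test. A gene was called at an adjusted p under 0.05 in edgeR's quasi-likelihood test over all 12820 genes tested. These 8 of 10 stand beside a background of 36.1% of all genes called, with 17.5% called higher and 18.6% called lower. Genes with more reads are called more often, and among genes with a mean of at least 10 CPM, a bound chosen after the data were seen, 44.1% were called, against 8 of the 9 members above it. Of the 10, Btg2 and Ccng1 were both called and at least 1.5-fold apart, beside 2.73% of all genes tested that met both conditions. In bulk RNA, fewer cells with a transcript and less of it per cell cannot be told apart, for each of these genes. With all libraries thinned to the count total of the smallest one, 5 members were still called higher and 3 lower.

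**Figure D1:**
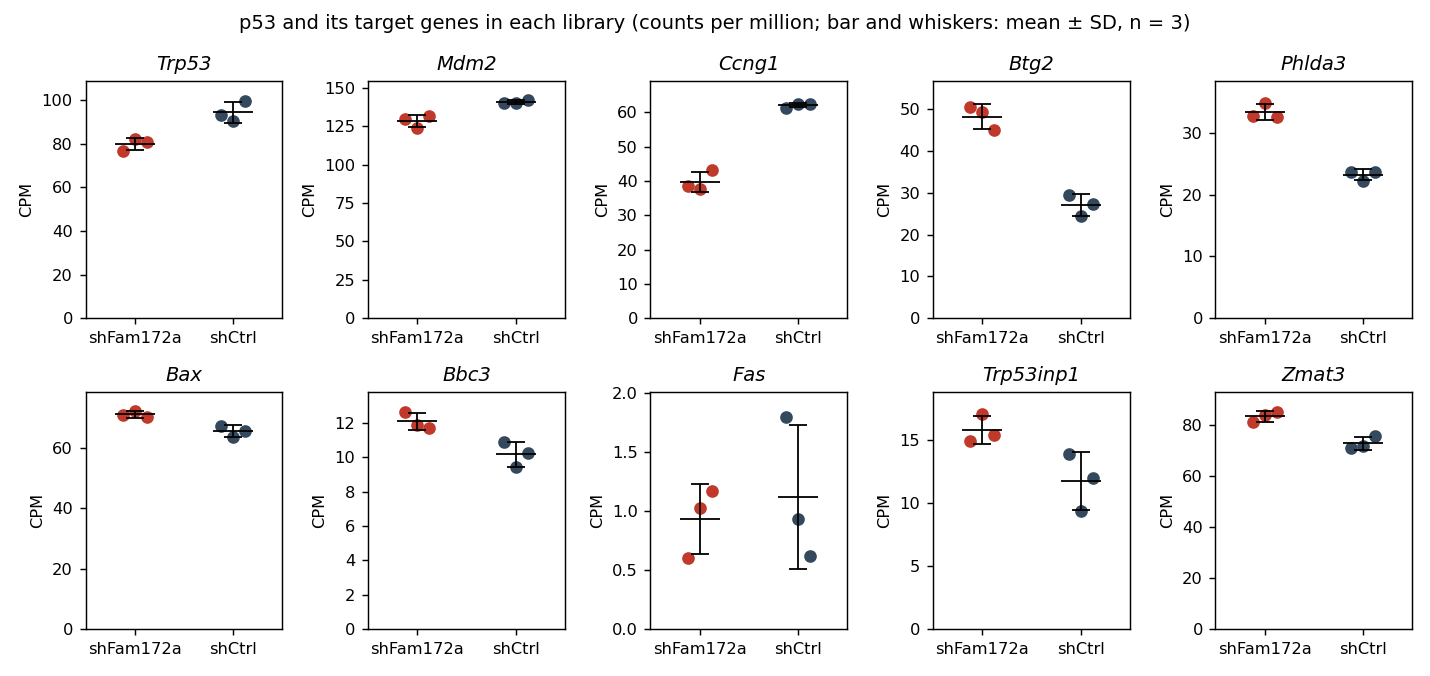
Level of each gene in every library, in CPM (TMM-scaled, y axis from 0), with the 3 ADV-shFam172a libraries in red on the left and the 3 ADV-shCtrl libraries in dark blue on the right; bars and whiskers are the mean ± SD. The groups are apart for 9 of the genes, with the widest gaps at Btg2 and Ccng1, and they overlap for Fas.

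**Figure D2:**
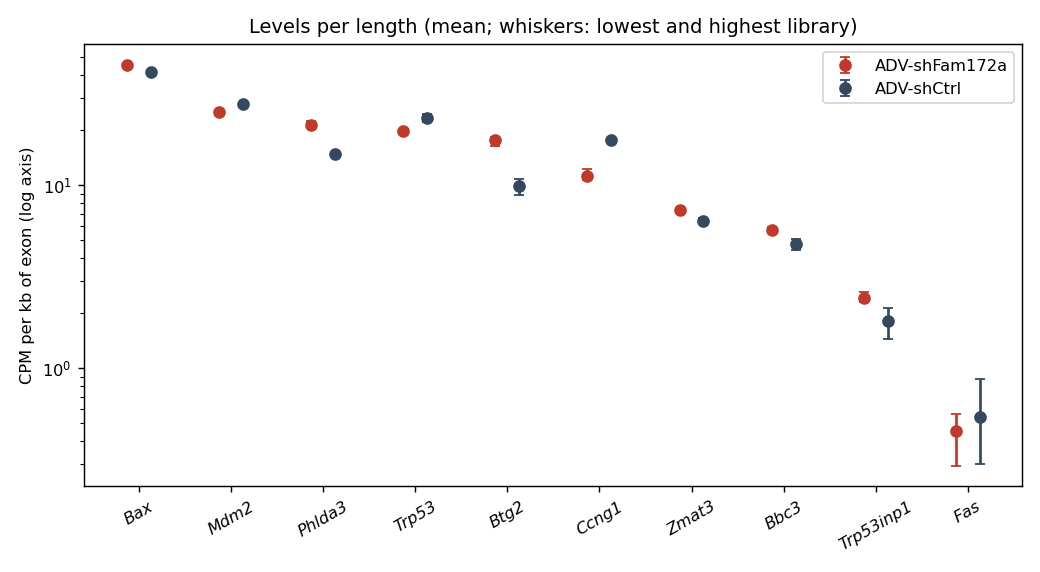
Level of each gene per kilobase of merged exon (CPM per kb, log axis) in ADV-shFam172a (red, left of each pair) and ADV-shCtrl (dark blue), with whiskers from the lowest to the highest library. Bax is highest at 45.2 CPM per kb in ADV-shFam172a and 41.6 in ADV-shCtrl, and Fas is lowest at 0.452 in ADV-shFam172a and 0.542 in ADV-shCtrl.

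Per kilobase of exon the 10 genes spread over 2 orders of magnitude. In ADV-shFam172a the order of the means was Bax (45.2 CPM per kb), Mdm2 (25.3), Phlda3 (21.4), Trp53 (19.7), Btg2 (17.6), Ccng1 (11.3), Zmat3 (7.30), Bbc3 (5.69), Trp53inp1 (2.43) and Fas (0.452). In ADV-shCtrl it was Bax (41.6), Mdm2 (27.7), Trp53 (23.3), Ccng1 (17.7), Phlda3 (14.9), Btg2 (9.88), Zmat3 (6.38), Bbc3 (4.80), Trp53inp1 (1.81) and Fas (0.542). In neither group did the ranges of neighbours in this order overlap. Bax and Mdm2 led both groups, while Phlda3 stood above Trp53, and Btg2 above Ccng1, in ADV-shFam172a but not in ADV-shCtrl. The lengths are those of all annotated exons merged, up to 11435 bases for Zmat3, and exons that these cells do not use lower the value.

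The transcripts of p53 and its inhibitor were both lower in ADV-shFam172a, by small amounts. On GRCm38, Trp53 (ENSMUSG00000059552.13) spans bases 69580359 to 69591873 of chromosome 11 (plus strand, 7 merged exons), and a processed pseudogene, Trp53-ps, is annotated elsewhere, so pairs that align to both may be missing from its count. It had 76.7, 82.0 and 80.9 CPM in the ADV-shFam172a libraries, against 93.2, 90.2 and 99.4 CPM in the ADV-shCtrl libraries. Every knockdown library lay below every control library, and the mean was 84.8% of that in ADV-shCtrl (log2 fold change -0.24 ± 0.043, SE; edgeR adjusted p = 2.7e-05). Wrap53, the gene next to Trp53 on the opposite strand, which shares no annotated exon bases with it, was named after the values were seen and stood at 13.3 ± 0.975 CPM in ADV-shFam172a and 13.7 ± 0.782 CPM in ADV-shCtrl (SD, n = 3 each). Its log2 fold change was -0.04 ± 0.093 (edgeR adjusted p = 0.75).

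Mdm2 (ENSMUSG00000020184.15, chromosome 10, 117688875 to 117710758, minus strand, 9 merged exons) had 130, 124 and 132 CPM in ADV-shFam172a, against 140, 140 and 142 CPM in ADV-shCtrl. The groups did not overlap, the 3 control libraries lay within about 2 CPM of each other, and the difference was the smallest of the 3 falls (log2 fold change -0.13 ± 0.035, SE; edgeR adjusted p = 0.0029). Mdm4, the relative of Mdm2 that blocks p53 without degrading it, was at 211 ± 3.73 CPM in ADV-shFam172a and 212 ± 4.88 CPM in ADV-shCtrl (SD, n = 3 each). Its log2 fold change of -0.01 had a 95% interval of -0.07 to 0.06 (edgeR adjusted p = 0.91).

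The 2 genes of the set that act on the cell cycle moved furthest, and in opposite directions. Ccng1, cyclin G1, which brings the phosphatase PP2A to Mdm2, fell most. The gene (ENSMUSG00000020326.7) spans bases 40748552 to 40755311 of chromosome 11 (minus strand, 6 merged exons). It had 38.4, 37.5 and 43.2 CPM in ADV-shFam172a, against 61.4, 62.4 and 62.4 CPM in ADV-shCtrl. The control libraries were nearly equal and all of them lay far above the knockdown libraries, of which replicate 3 was the highest. The mean was 64.0% of that in ADV-shCtrl (log2 fold change -0.64 ± 0.053, SE; edgeR adjusted p = 1.8e-12), and only 88 of 12820 genes had a lower log2 fold change.

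Btg2, a growth-suppressing partner of the CCR4-NOT deadenylase that is also an early response gene, rose most. The gene (ENSMUSG00000020423.6) spans bases 134075170 to 134079120 of chromosome 1 (minus strand, 2 merged exons). It had 50.5, 49.3 and 44.9 CPM in ADV-shFam172a, against 29.6, 24.4 and 27.4 CPM in ADV-shCtrl. The lowest knockdown library was still well above the highest control library, a 1.78-fold difference of the fitted means (log2 fold change 0.84 ± 0.064, SE; edgeR adjusted p = 2.8e-13). Btg2 was at place 169 from the top of the 12820 log2 fold changes.

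The 5′ windows of these 2 genes and of Bax are shown because they belong to the largest fall and the largest rise among the members and to the rise whose call was lost most often. They are the 300 bases from 250 before to 50 after the annotated start, from RefSeq on GRCm38.p6, written 5′ to 3′ on the gene's strand. Capitals mark a pair of p53 half-sites. A pair was searched as 2 matches to the p53 half-site consensus, each with the core CNNG, 0 to 13 bases apart and with at most 2 mismatches over the 20 bases; the consensus is its own reverse complement, so 1 strand covers both.
Ccng1: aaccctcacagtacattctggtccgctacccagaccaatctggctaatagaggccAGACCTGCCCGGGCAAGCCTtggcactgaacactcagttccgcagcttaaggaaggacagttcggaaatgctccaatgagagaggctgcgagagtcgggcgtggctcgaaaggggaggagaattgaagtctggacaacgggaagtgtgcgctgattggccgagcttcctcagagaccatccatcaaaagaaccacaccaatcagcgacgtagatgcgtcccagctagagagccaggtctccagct
Btg2: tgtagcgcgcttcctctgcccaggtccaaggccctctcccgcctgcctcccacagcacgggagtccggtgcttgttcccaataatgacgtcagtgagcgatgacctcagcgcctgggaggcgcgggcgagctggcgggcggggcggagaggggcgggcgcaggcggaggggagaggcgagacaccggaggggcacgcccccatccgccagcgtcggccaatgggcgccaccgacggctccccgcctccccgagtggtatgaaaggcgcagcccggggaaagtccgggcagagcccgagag
Bax: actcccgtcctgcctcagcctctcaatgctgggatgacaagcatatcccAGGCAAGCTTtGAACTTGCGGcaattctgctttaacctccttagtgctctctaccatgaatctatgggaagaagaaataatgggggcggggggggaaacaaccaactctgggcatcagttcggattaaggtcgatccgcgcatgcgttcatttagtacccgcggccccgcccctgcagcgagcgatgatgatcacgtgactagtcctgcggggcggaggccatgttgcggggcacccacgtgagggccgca
The window of Ccng1 is chr11:40755237-40755536, that of Btg2 chr1:134079106-134079405 and that of Bax chr7:45466849-45467148, all on the minus strand. Ccng1 holds a pair with 1 mismatch and no spacer, whose first base is at -195 from the start, and its second half-site matches exactly. Bax holds a pair with 2 mismatches and a spacer of 1 base, whose first base is at -201, and its first half-site matches exactly. Btg2 holds no such pair in this window.

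Windows were at hand for 8 of the 10 genes, with 3 starts for Bbc3 and so 10 windows in all; those of Zmat3 and Trp53inp1 were not analysed here. An exact half-site stood in 4 of the 10 windows (Bax, Ccng1, Mdm2 and Trp53), and in 8.36% of all 32851 windows. A pair with at most 2 mismatches stood in 2 of the 10, and in 4.09% of all windows. With 3 mismatches allowed, a setting chosen after the data were seen, 5 of the 10 windows and 15.6% of all windows held a pair. These added Trp53 and 2 windows of Bbc3, of which the pair in the window chr7:16309333-16309632 (plus strand) lies at chr7:16309486-16309505 and reads as follows, with both half-sites in capitals.
Bbc3: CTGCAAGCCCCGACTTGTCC
Members with a pair at 2 mismatches include a gene that fell (Ccng1) and one that rose (Bax), and members without one include Btg2 and Phlda3, which rose. A match is a likeness in letters and not a measured binding site, and p53 sites that lie in introns, such as the known ones of Mdm2 and Fas, are outside these windows.

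Phlda3, Trp53inp1 and Zmat3, which carry p53 signals to growth, autophagy and RNA, were all higher in ADV-shFam172a. Phlda3, a small protein that competes with the kinase AKT for membrane lipids, lies on chromosome 1 at 135766119 to 135769136, on the plus strand. It had 32.8, 34.9 and 32.5 CPM in ADV-shFam172a, against 23.6, 22.2 and 23.7 CPM in ADV-shCtrl. The groups were far apart for the small spread within each, a 1.44-fold difference (log2 fold change 0.53 ± 0.066, SE; edgeR adjusted p = 3.4e-08).

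Trp53inp1, a stress protein that aids the phosphorylation of p53 and takes part in autophagy, lies on chromosome 4 at 11156431 to 11174379, on the plus strand. It had 14.9, 17.0 and 15.4 CPM in ADV-shFam172a, against 13.9, 9.34 and 12.0 CPM in ADV-shCtrl. The lowest knockdown library was close to the highest control library, and the control libraries varied more than the knockdown libraries (log2 fold change 0.44 ± 0.10, SE; edgeR adjusted p = 0.0010). Without ADV-shCtrl replicate 2, the lowest of the 6, the log2 fold change was 0.29 with edgeR adjusted p = 0.046.

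Zmat3, a zinc finger protein that binds RNA and affects its splicing and stability, lies on chromosome 3 at 32334792 to 32366014, on the minus strand. It had 81.3, 84.1 and 85.2 CPM in ADV-shFam172a, against 71.2, 71.8 and 75.8 CPM in ADV-shCtrl. The groups did not overlap and the difference was small (log2 fold change 0.20 ± 0.043, SE; edgeR adjusted p = 0.00035).

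Among the death genes of the set only Bax was called, and its call did not hold throughout. Bax, which opens the outer membrane of mitochondria, lies on chromosome 7 at 45461697 to 45466898, on the minus strand, and shares 192 exon bases with the gene model Gm45808 on the same strand. It had 71.1, 72.5 and 70.3 CPM in ADV-shFam172a, against 67.4, 63.6 and 65.9 CPM in ADV-shCtrl. The groups did not overlap, with a gap of under 3 CPM between the nearest libraries (log2 fold change 0.12 ± 0.044, SE; edgeR adjusted p = 0.031). With an offset for exon length and GC content the log2 fold change was 0.06 (edgeR adjusted p = 0.29), in DESeq2 it was 0.12 (adjusted p = 0.086), and with 1 library left out the call was lost in 4 of 6 cases: without ADV-shFam172a replicate 1 (adjusted p = 0.0501) or 2 (0.097), or ADV-shCtrl replicate 2 (0.16) or 3 (0.063). The longest annotated transcript of Bax has 63.5% GC, that of Bbc3 65.2% and that of Phlda3 62.6%, the 3 highest of the 10 genes.

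Bbc3, the BH3-only protein PUMA that frees BAX to act, lies on chromosome 7 at 16308393 to 16318205, on the plus strand. It had 12.6, 11.9 and 11.7 CPM in ADV-shFam172a, against 10.9, 9.42 and 10.3 CPM in ADV-shCtrl. Every knockdown library was above every control library, but the difference did not pass (log2 fold change 0.25 ± 0.10, SE, 95% interval 0.04 to 0.46; edgeR adjusted p = 0.053). Without ADV-shCtrl replicate 1 it passed, at 0.30 with edgeR adjusted p = 0.045.

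Fas, the death receptor at the cell surface, lies on chromosome 19 at 34290666 to 34327772, on the plus strand, and was close to the limit of what these libraries measure. It had 13, 24 and 26 counts in ADV-shFam172a and 21, 12 and 7 counts in ADV-shCtrl, which is 0.602, 1.03 and 1.17 CPM in ADV-shFam172a, against 1.80, 0.934 and 0.620 CPM in ADV-shCtrl. The groups overlapped: the highest value was in a control library, and the lowest of each group were nearly equal. The log2 fold change of -0.25 ± 0.36 (SE) had a 95% interval of -0.97 to 0.47 (edgeR adjusted p = 0.62), so a change of 1.5-fold downwards lies inside the interval and was not detectable at this depth. Without ADV-shCtrl replicate 1 it turned to 0.25 (edgeR adjusted p = 0.71), and without ADV-shFam172a replicate 1 it was -0.02 (edgeR adjusted p = 0.97).

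**Figure D3:**
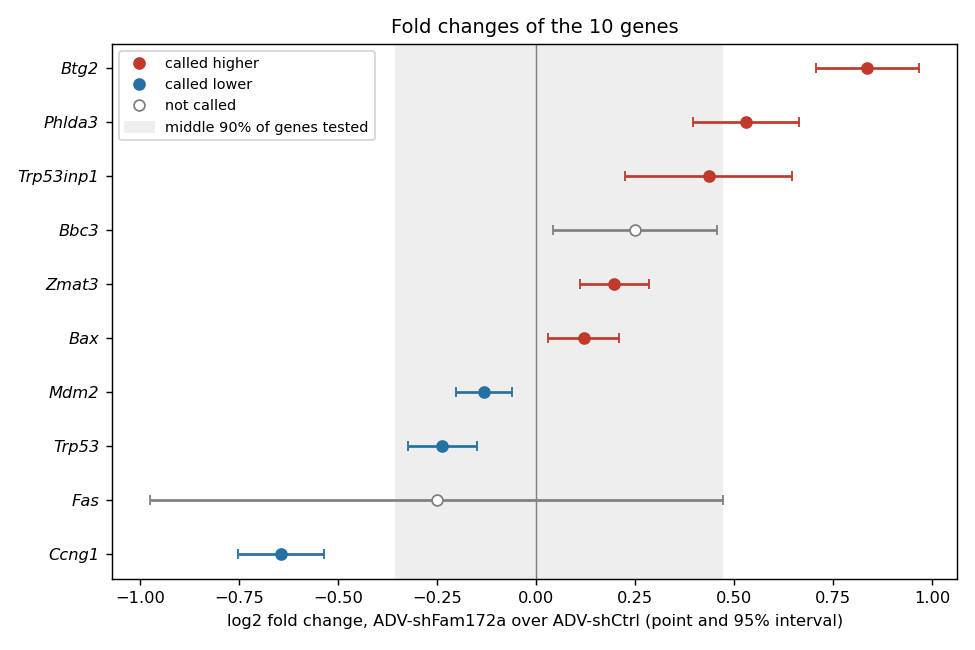
Log2 fold change of each gene, ADV-shFam172a over ADV-shCtrl (x axis), with its 95% interval; red points were called higher, blue points lower and open points were not called, and the grey band holds the middle 90% of all 12820 genes tested. Btg2 at 0.84 and Phlda3 at 0.53 lie above the band, Ccng1 at -0.64 lies below it, and the interval of Fas crosses 0.

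The groups did not overlap for 9 of the 10 genes, against 46% of all genes tested and 53% of those with a mean of at least 10 CPM. The median log2 fold change of the 10 was 0.16, and that of all genes tested was -0.00030. The range ran from -0.64 for Ccng1 to 0.84 for Btg2.

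The genes that act on p53 itself showed no shared direction. Of 25 genes in the table that control p53, 23 were tested, of which 7 rose, 6 fell and 10 were not called; their median log2 fold change was 0.02. This is 56.5% called beside 36.1% of all genes and 44.1% of those with a mean of at least 10 CPM. The list itself was not cut at that bound, and it was drawn up with earlier results of these data known. Cdkn2a, the locus of the Mdm2 inhibitor ARF and of the kinase inhibitor p16, rose to 51.6 ± 1.80 CPM in ADV-shFam172a, against 42.1 ± 1.99 CPM in ADV-shCtrl (edgeR adjusted p = 2.6e-05), and counts per gene do not separate the products. The damage kinase Atr rose by 0.19 ± 0.037 on the log2 scale (edgeR adjusted p = 5.9e-05), the acetyltransferase Crebbp by 0.26 ± 0.051 (edgeR adjusted p = 1.2e-04), and Ppp1r13l, the p53 inhibitor iASPP, by 0.51 ± 0.11 (edgeR adjusted p = 2.2e-04). With the offset for exon length and GC content Atr was at 0.13 (edgeR adjusted p = 0.0045). Atr shares exon bases with antisense transcripts, and the strand setting of the counting is not given in the sources used here.

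On the falling side of this list were Npm1 (log2 fold change -0.18), a nucleolar protein that binds ARF, the checkpoint kinase Chek1 (-0.30), the phosphatase Ppm1d (-0.27), which switches p53 off again and is one of its targets, and Trp53bp2 (-0.17), the p53 partner ASPP2. Their edgeR adjusted p values were 3.8e-07, 1.4e-04, 9.4e-04 and 9.4e-04 in this order. With the offset Npm1 was at -0.11 (edgeR adjusted p = 1.2e-04). Npm1 has many processed copies in the genome, and its value is uncertain for that reason. The p53 relatives Trp63 and Trp73 had at most 1 and 2 counts in any library and were not tested.

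Other targets of p53 fell more often than they rose. Over 3 lists with 59 genes in the table, 47 were tested, of which 7 rose, 18 fell and 22 did not pass, or 14.9% and 38.3% beside 17.5% and 18.6% of all genes. The lists were drawn up with earlier results of these data known, so they do not count as independent evidence of a direction. Cdkn1a, the CDK inhibitor p21 and the best known arrest gene of p53, rose to 99.9 ± 7.46 CPM in ADV-shFam172a, against 79.1 ± 4.37 CPM in ADV-shCtrl (SD, n = 3 each). Its log2 fold change was 0.34 ± 0.048 (SE; edgeR adjusted p = 7.9e-07), the same direction as Btg2 and opposite to Ccng1. It shares exon bases with a transcript on the opposite strand.

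Among growth arrest and DNA repair targets, 14 were tested and the median log2 fold change was -0.23: 2 rose, 6 fell and 6 were not called. That is 14.3% higher and 42.9% lower, beside 17.5% and 18.6% of all genes tested. Beside Cdkn1a, the repair nuclease Ercc5 was called at 0.13 ± 0.049 (SE; edgeR adjusted p = 0.033), a call lost when any library but ADV-shFam172a replicate 3 was left out, in DESeq2 (adjusted p = 0.097) and in thinned libraries (0.09, edgeR adjusted p = 0.23). The 4 falls with the smallest p were the mitotic proteins Ckap2 (-0.42), Gtse1 (-0.51) and Psrc1 (-0.46) and the replication clamp Pcna (-0.22), with edgeR adjusted p of 1.1e-10, 4.3e-10, 1.8e-04 and 2.5e-06. All 4 are also known as genes of dividing cells. Gadd45a, an arrest and repair gene, stood at 6.82 ± 0.337 CPM in ADV-shFam172a and 8.38 ± 1.48 CPM in ADV-shCtrl (SD, n = 3 each), with a log2 fold change of -0.30 ± 0.13 (SE; edgeR adjusted p = 0.064). Without ADV-shCtrl replicate 1 it was called lower, at -0.44 with edgeR adjusted p = 0.011, whereas it was at -0.20 without ADV-shCtrl replicate 2 and at -0.18 in thinned libraries (edgeR adjusted p = 0.34 in both). Gadd45a too shares exon bases with a transcript on the opposite strand.

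Of 9 cell death targets tested, 0 were called higher, 5 fell and 4 were not called, and the median log2 fold change was -0.18. The death genes Bax, called higher, and Bbc3 and Fas, not called, were counted with the members and are not in this list. The 5 falls are 55.6% of the list, and over all genes tested 17.5% were called higher and 18.6% lower. At an unadjusted p under 0.05 in edgeR 0 were higher and 6 lower, and DESeq2 and limma-voom also called 0 higher and 5 lower. Without ADV-shCtrl replicate 2, edgeR called 4 lower, and with the offset for exon length and GC content it called 6 lower. The nuclease Aen fell by 0.37 ± 0.049 on the log2 scale (edgeR adjusted p = 1.4e-07) and the iron reductase Steap3 by 0.73 ± 0.14 (edgeR adjusted p = 5.4e-05). Ei24, a membrane protein of the endoplasmic reticulum, was at -0.18 and the ferredoxin reductase Fdxr at -0.24 (edgeR adjusted p = 0.0019 and 0.0044), both called lower; Ei24 shares exon bases with an antisense transcript. The other 6 genes of the list were under the filter, with at most 5 counts in any library. One of them was Pmaip1, the BH3-only protein NOXA, with 0 counts in all 6 libraries; over their summed gene counts, 3 counts would be 0.0291 CPM, the upper limit that counting error leaves.

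Targets in metabolism and other roles were split, with 5 of 24 higher, 7 lower and 12 not past the test. That is 20.8% higher and 29.2% lower, beside 17.5% and 18.6% of all genes tested. Their median log2 fold change was -0.04. Ddit4, the mTORC1 inhibitor REDD1, which low oxygen also raises, rose to 521 ± 38.3 CPM in ADV-shFam172a, against 309 ± 5.38 CPM in ADV-shCtrl (log2 fold change 0.75 ± 0.039, SE; edgeR adjusted p = 3.0e-13). Gls2, the liver-type glutaminase, rose by 0.63 ± 0.070 on the log2 scale (edgeR adjusted p = 3.8e-09), and it shares 97 exon bases with Spryd4 on the opposite strand. The epoxide hydrolase Ephx1 (0.42) and the thiamine carrier Slc19a2 (0.33) also rose, with edgeR adjusted p of 1.2e-08 and 1.7e-06, and Ephx1 shares 72 exon bases with a pseudogene. Gdf15, a secreted stress factor, fell to 30.1 ± 1.45 CPM in ADV-shFam172a, against 45.6 ± 3.43 CPM in ADV-shCtrl (log2 fold change -0.60 ± 0.060, SE; edgeR adjusted p = 3.0e-10). Gpx1, a glutathione peroxidase (-0.27), Rps27l, a ribosomal protein relative (-0.30), and Abhd4, a lipase (-0.34), fell with edgeR adjusted p of 7.4e-07, 5.1e-05 and 0.0013; Rps27l resembles Rps27 and its value is uncertain.

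**Figure D4:**
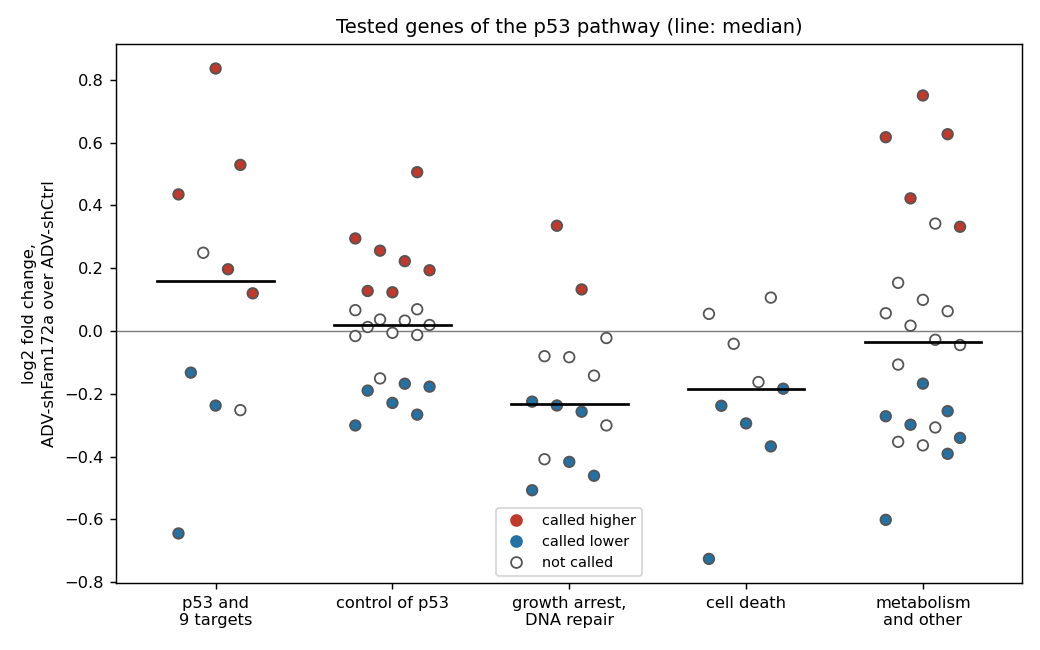
Log2 fold change, ADV-shFam172a over ADV-shCtrl (y axis), of the 10 genes and of the tested genes of 4 lists of the p53 pathway, 1 point per gene, red if called higher, blue if called lower and open if not called; the black line is the median. The medians are 0.16, 0.02, -0.23, -0.18 and -0.04 from left to right, and each group but the cell death list has red and blue points. The death genes Bax, Bbc3 and Fas are shown among the 10 genes and not in the cell death list.

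**Figure D5:**
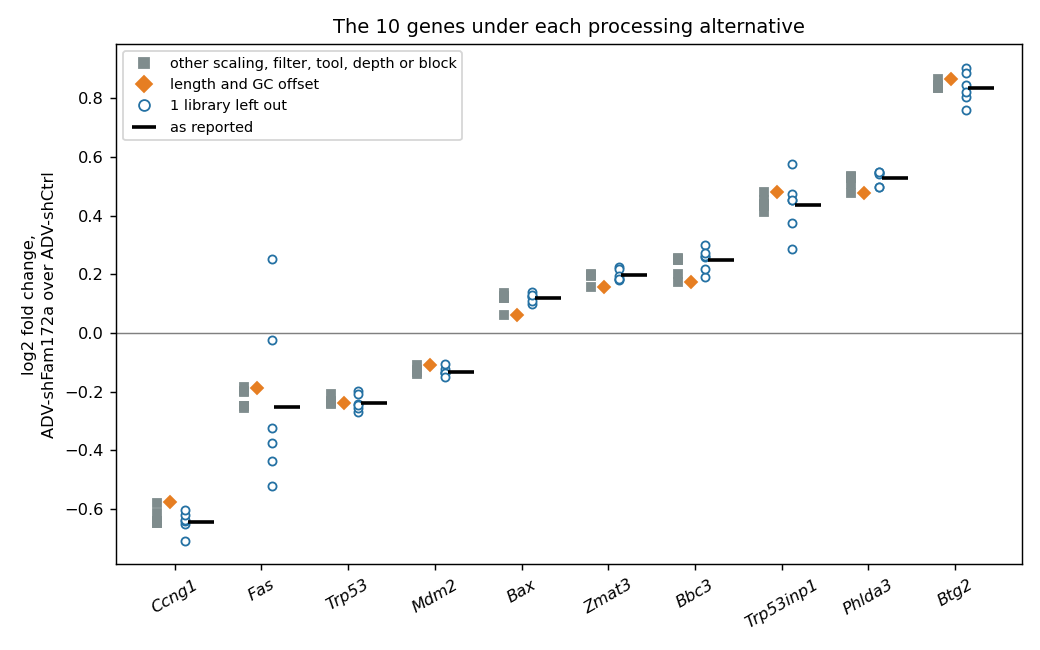
Log2 fold change of each gene, ADV-shFam172a over ADV-shCtrl (y axis), as reported (black bar), with 1 library left out (open blue circles), with an offset for exon length and GC content (orange diamonds) and under the other alternatives (grey squares). Apart from Fas, whose points lie from -0.52 to 0.25, no gene changes sign, and of the genes above 0 Bax comes nearest to it, at 0.06 with the offset.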

How the data were processed

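RNA-seq counts of 6 Neuro2a samples (3 ADV-shFam172a, 3 ADV-shCtrl) were used as deposited. These are whole-number read counts for each gene, which the authors left without normalization; per the submitters' processing notes, HISAT2 2.0.5, HTSeq and mm10 were used. For annotation and strand setting, the sources used here give nothing. Rows for pairs assigned to no gene (35.0% to 37.6% of all pairs per ADV-shFam172a library, 33.5% to 34.5% in ADV-shCtrl) were left out. The 6 files of single samples matched the series table.

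Genes were filtered with filterByExpr (minimum count 10), which left 12820 of 18128 genes with any count, with TMM scaling, and fitted in edgeR 4.0.16 under R 4.3.3 (glmQLFit, robust, and glmQLFTest, two-sided, group as sole term), with Benjamini-Hochberg adjustment over all genes tested. SE is the size of the log2 fold change over the root of F. The 95% intervals use the total degrees of freedom (median 37.4), which add those borrowed from other genes to the residual ones. Places, lengths, GC and overlaps come from GENCODE M21 (GRCm38), promoter windows from RefSeq (GRCm38.p6). The same fit was then run on simulated counts with the spread estimated from these libraries. Of 50 well-counted genes changed at each size, 40 were called in the right direction at 1.25-fold, 47 at 1.5-fold and 50 at 2-fold. Of 12620 unchanged genes, 13 were called. Far fewer genes were changed in the simulation than the 4627 of 12820 called in the data. The adjusted threshold is stricter when few genes change. These counts therefore do not give the recovery or the rate of false calls of the fit reported here. No pair of libraries agreed within sampling noise (chi-square per degree of freedom 1.61 to 2.84 within groups, 12.6 to 17.4 between). Intervals and floors cover counting error or the spread between these libraries only.

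The members and the pathway lists were chosen with earlier results of these data known. All 10 members are named. From each list, up to 4 genes called in each direction with the smallest adjusted p and a mean of at least 2 CPM are named, and Cdkn1a, Gadd45a, Pmaip1 and Mdm4 always. Alternatives were DESeq2 1.42.0, limma-voom (limma 3.58.1), RLE scaling, no filter, thinned libraries, a spline offset for exon length and GC (known for 99.5% of genes tested), a replicate block and leaving out each library.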

Additional observations from a re-analysis of the deposited data

How the results depend on the processing

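Each of the 10 genes was recomputed under 14 alternatives. Trp53, Mdm2, Ccng1, Btg2, Phlda3, Trp53inp1 and Zmat3 kept direction and call under all 14. Bax was called under 7 and not under the other 7 (log2 fold change 0.06 to 0.14, adjusted p 0.027 to 0.33). Bbc3 was called under 1, without ADV-shCtrl replicate 1 (0.18 to 0.30, adjusted p 0.045 to 0.23). With 1 library left out, Fas lay from -0.52 to 0.25, the positive value without ADV-shCtrl replicate 1 (adjusted p = 0.71). Mdm4 lay from -0.021 to 0.010, with 0.0060 and 0.00026 also above 0, without ADV-shCtrl replicate 2 and ADV-shFam172a replicates 1 and 2; the cause was not tested. With 1 library left out, members called higher numbered 4 to 6 and those called lower 3, and all genes called higher 1804 to 2091 and lower 1877 to 2228. Among growth arrest and repair targets, 1 in place of 2 was called higher under 7 alternatives, in which Ercc5 was not called. The pair search with 3 mismatches found 5 windows in place of 2. The labels number the libraries but do not say whether the numbers pair the samples. Deviations of same-numbered libraries correlated at -0.0054, -0.0038 and -0.0096, and not every library correlated best with its own number. Taken from means of 3 libraries, these deviations cannot decide whether same-numbered libraries were prepared together. A fit with the replicate block called 2150 genes higher and 2318 lower, with 5 and 3 members. The SE of the log2 fold change was 0.36 for Fas, at 7 to 26 counts per library, and at most 0.10 for the other 9.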
